A study of Mus musculus with 2 samples.

Results

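The 9 genes described here, Mycn, Egfr, Thrsp, Frzb, Hopx, Fabp7, Mfap2, Cd9 and Ecrg4, were chosen by name as genes linked to the activation of adult neural stem cells (NSCs). The choice was made with earlier results of these data known. All 9 were measured, out of 22625 features carrying 22587 gene symbols. The data were single-cell RNA-seq (10x 3′) of YFP-positive cells sorted from the hippocampus of 12-week-old mice. Tamoxifen (TAM) had been given at 8 weeks of age to both genotypes. The control (CT) library came from mice with Nestin-CreERT2 and the ROSA26YFP reporter but no Opa1-Flox allele, and the Opa1 cKO library came from Opa1-Flox;Nestin-CreERT2;ROSA26YFP mice. GEO's label gives the latter strain for both libraries, and the CT genotype is taken from the title and the study's methods. In both genotypes the Nestin promoter drives a Cre that TAM activates, so that Nestin-expressing cells and their progeny carry YFP. In Opa1 cKO mice the same Cre is meant to delete Opa1, which encodes a mitochondrial inner membrane fusion protein. Each genotype was 1 library made from 3 pooled mice. No difference between genotypes could therefore be tested, and the 95% intervals given below cover counting error only.

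Adult hippocampal NSCs are radial glia-like (RGL) cells that rest for long periods and, once activated, enter the cell cycle and give rise to neuronal progenitors. Mycn encodes N-Myc, a transcription factor of growing and dividing progenitors. Egfr is the receptor of EGF-like growth factors. Frzb encodes a secreted antagonist of WNT ligands, Mfap2 a glycoprotein of extracellular microfibrils, and Ecrg4 a precursor of secreted peptides. Thrsp (Spot14) acts on fatty acid synthesis, and Fabp7 is the fatty acid-binding protein of radial glia. Hopx is an atypical homeodomain protein found in quiescent NSCs, and Cd9 is a tetraspanin of the cell surface.

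After filters on genes per cell, mitochondrial share and at least 1 YFP unique molecular identifier (UMI), 1790 CT cells and 3764 Opa1 cKO cells were kept. Their median depths were 2555 and 3008 UMIs. The libraries shared 36 cell barcodes, 9 of them among the kept cells. Cells were clustered without the 9 genes. The NSC pool-like class held 1377 CT and 2593 Opa1 cKO cells. It was made of 2 clusters, one with 1373 CT and 787 Opa1 cKO cells and one with 4 CT and 1806 Opa1 cKO cells, the latter led by stress genes such as Gdf15 and Slc7a11. Each cluster passed 9 of the 12 pool markers, among them Aldoc, Slc1a2, Aqp4, Gja1 and Glul. Sox2 and Id3 passed in neither, and Gfap only in the cluster led by stress genes. No list of astrocyte markers was used, so astrocytes and resting NSCs were not told apart in this class. In this class Opa1 itself was at 18.5 CPM in CT, from 70 UMIs, and at 7.95 CPM in Opa1 cKO, from 68. CPM here is the gene's UMIs over all UMIs of the class, scaled to a common total. The progenitor and neuron-like class held 139 and 171 cells. Ependymal, oligodendrocyte, mural and endothelial-like classes were also present in both libraries.

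The class called here radial glia-like or activated NSC-like (RGL/aNSC-like) was the least settled. In the first clustering it held 11 CT and 398 Opa1 cKO cells and rested on 3 of 14 fixed markers, Tfap2c and Wnt8b among them. The name was given over both libraries joined, and 97.3% of the cells were of Opa1 cKO. In the 11 CT cells 4 of the 14 markers were at 0. Tfap2c had 1 UMI in these CT cells (33.7 CPM) and 44 in those of Opa1 cKO (36.3 CPM). The 14 markers summed to 1583 (CT) and 1016 (Opa1 cKO) CPM in this class, against 423 and 383 CPM in the pool. Their sum was higher still in ependymal-like cells, at 2183 and 2231 CPM, so the list as a whole was not particular to the class. A second clustering, which also left out mitochondrially encoded genes and genes of the integrated stress response (ISR), gave 49 CT and 350 Opa1 cKO cells and 5 of 14 markers, Vnn1 and Lfng being added. Tfap2c then had 2 UMIs in CT (14.6 CPM) and 45 in Opa1 cKO (45.5 CPM). Between the clusterings 39 CT and 89 Opa1 cKO cells moved from the pool into the class, and 1 CT and 138 Opa1 cKO cells moved from it into the pool. Summed oligodendrocyte precursor markers were at 1280 CPM in the 11 CT cells, with 7 of 8 markers detected, against 146 CPM in the 398 Opa1 cKO cells. In the second clustering they were at 350.3 (CT) and 148 (Opa1 cKO) CPM. Summed progenitor and neuron markers stood at 2560 (CT) and 710 (Opa1 cKO) CPM in the first clustering and at 1211 and 832 CPM in the second, where 8 and 3 of 14 markers were at 0. Summed microglia markers were at 73.0 and 381 CPM in the second clustering. The part of these other cells in the results below was not tested.

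Mycn, Mfap2 and Ecrg4 were among the members that differed most between RGL/aNSC-like and NSC pool-like cells, and the sequence upstream of their start is shown for that reason. The windows are from RefSeq (GRCm38.p6), written 5′ to 3′ on the gene's strand. They are cut to the bases upstream of both the RefSeq and the GENCODE M21 start. Frzb is left out because little of its window lies upstream of both starts.
Mycn (chr12:12941915-12942086, strand -): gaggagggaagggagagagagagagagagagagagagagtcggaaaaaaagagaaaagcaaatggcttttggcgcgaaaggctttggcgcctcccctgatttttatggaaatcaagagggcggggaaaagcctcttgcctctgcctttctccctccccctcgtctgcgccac
Mfap2 (chr4:141010174-141010417, strand +): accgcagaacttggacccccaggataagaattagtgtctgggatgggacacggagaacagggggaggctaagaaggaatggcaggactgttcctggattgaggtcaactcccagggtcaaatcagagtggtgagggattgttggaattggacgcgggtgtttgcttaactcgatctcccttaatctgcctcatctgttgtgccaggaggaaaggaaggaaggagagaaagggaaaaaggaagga
Ecrg4 (chr1:43730352-43730601, strand +): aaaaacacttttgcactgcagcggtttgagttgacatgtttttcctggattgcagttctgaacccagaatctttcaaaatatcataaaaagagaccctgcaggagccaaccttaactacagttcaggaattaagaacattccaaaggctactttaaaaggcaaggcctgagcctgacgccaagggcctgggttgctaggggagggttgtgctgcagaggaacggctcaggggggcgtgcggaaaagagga
None of the printed stretches held the E-boxes CAGCTG or CACGTG or the C/EBP-ATF element TGATGCAA on either strand, so no letter is capitalised. All 9 members matched RefSeq, with 11 windows of 300 bases, 250 before and 50 after the start. CAGCTG lay in 3 of the 11, those of Cd9, Frzb and Hopx, against 16.3% of 32851 windows of all genes. CACGTG lay in 1, that of Hopx, against 7.15%. TGATGCAA lay in none of the 11, against 0.895%. The GC content of the printed stretches was 54.1% for Mycn, 51.2% for Mfap2 and 48.4% for Ecrg4. A match or its absence is a description of these letters only.

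The 9 genes fell into different patterns over the classes. Mycn (chromosome 12, 12936093 to 12941914) was at 273 (CT) and 296 (Opa1 cKO) CPM progenitor and neuron-like cells. It was at 269 CPM in CT RGL/aNSC-like cells, from 8 UMIs, and at 141 CPM in those of Opa1 cKO, from 171 UMIs. In the second clustering the order of the libraries turned, with 65.7 CPM in CT, from 9 UMIs, and 163 CPM in Opa1 cKO. In NSC pool-like cells it was nearly undetected, 2 UMIs being seen in CT (0.530 CPM) and 24 in Opa1 cKO (2.81 CPM). Mycn was thus highest in the progenitor and RGL/aNSC-like classes in both libraries, though in CT only 4 of the 11 RGL/aNSC-like cells held it. Endothelial-like cells came next, at 21.5 (CT) and 10.3 (Opa1 cKO) CPM. Between the progenitor and RGL/aNSC-like classes of the first clustering the intervals overlapped in CT (227 to 326 and 116 to 531 CPM). They did not overlap in Opa1 cKO.

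Egfr (chromosome 11, 16752203 to 16918158) showed another order. It was at 47.2 (CT) and 31.9 (Opa1 cKO) CPM pool cells, and at 51.1 and 19.9 CPM in the progenitor and neuron-like class. The RGL/aNSC-like class had no Egfr UMI in the 11 CT cells and 22.3 CPM in Opa1 cKO. In the second clustering that class was at 51.1 CPM in CT, from 7 UMIs, and 20.2 CPM in Opa1 cKO, from 20. Egfr was the one member of the 9 whose RGL/aNSC-like level lay within counting error of the pool in both libraries in the first clustering. In CT the count of 0 there allowed up to 124 CPM, so it could hardly have told the class apart from the pool. In the second clustering the Opa1 cKO interval only just left out equality.

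Of the 3 genes for extracellular proteins, Frzb (chromosome 2, 80411970 to 80447625) was the most narrowly placed in Opa1 cKO. It was at 67.4 CPM in CT RGL/aNSC-like cells, from 2 UMIs, and at 115 CPM in those of Opa1 cKO, from 139. With the second clustering CT was the higher, with 175 CPM, from 24 UMIs, against 142 CPM in Opa1 cKO. The pool was at 11.1 and 5.85 CPM, and with the second clustering at 5.45 and 5.58 CPM. The ependymal-like, mural-like and progenitor and neuron-like classes each held 0 to 2 Frzb UMIs per library. Oligodendrocyte-like cells of CT, with 3 UMIs (10.4 CPM), and endothelial-like cells of Opa1 cKO, with 2 (5.16 CPM), were near the pool. In CT a count of 0 allowed up to 33.7 CPM in ependymal-like and 22.0 CPM in mural-like cells.

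Mfap2 (chromosome 4, 141010418 to 141015984) had 404 (CT) and 371 (Opa1 cKO) CPM progenitor and neuron-like cells. RGL/aNSC-like cells carried 909 and 189.6 CPM, and in the second clustering 343 and 217 CPM. The pool carried 21.2 and 11.6 CPM. Its order over the classes was thus much like that of Mycn, except that mural-like cells also held Mfap2, at 71.6 and 52.6 CPM, whereas no Mycn UMI was seen there.

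Ecrg4 (chromosome 1, 43730602 to 43742578; 1500015O10Rik in GENCODE M21) had its highest level outside the NSC classes. Ependymal-like cells were at 1224 (CT) and 1214 (Opa1 cKO) CPM, which are within counting error of each other. RGL/aNSC-like cells followed with 135 CPM, from 4 UMIs, and 230.0 CPM, from 279, and with 197 and 262 CPM in the second clustering. The pool was at 16.7 and 11.9 CPM. In Opa1 cKO, 13.3 Ecrg4 UMIs were seen per UMI of the cilium gene Ccdc153 in RGL/aNSC-like cells, 1.7 in the pool and 0.406 in ependymal-like cells. In CT the pool had 5.73 and ependymal-like cells 0.384.

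The genes of lipid handling, Thrsp and Fabp7, and the homeodomain gene Hopx were high in RGL/aNSC-like cells and then in the pool. Thrsp (chromosome 7, 97412938 to 97417730) was at 3065 (CT) and 1328 (Opa1 cKO) CPM RGL/aNSC-like cells while the pool stood at 932 and 927 CPM. Fabp7 (chromosome 10, 57784881 to 57788450) was at 1313 and 1477 CPM in RGL/aNSC-like cells and 589.6 and 601 CPM in the pool. Hopx (chromosome 5, 77086988 to 77115121) was at 337 and 399 CPM, against 174 and 167 CPM in the pool. By the second clustering RGL/aNSC-like cells of CT and Opa1 cKO were at 2313 and 1400.3 CPM for Thrsp, at 1853 and 1568 CPM for Fabp7 and at 459.7 and 401 CPM for Hopx. Among the NSC and neuronal classes, progenitor and neuron-like cells were lowest for all 3 genes, for instance 13.3 (CT) and 33.1 (Opa1 cKO) CPM for Hopx.

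Cd9 (chromosome 6, 125460266 to 125494791) was present in several lineages. It was at 1852 (CT) and 1547 (Opa1 cKO) CPM RGL/aNSC-like cells, at 1461 and 1849 CPM in ependymal-like cells and at 1038 and 1538 CPM in oligodendrocyte-like cells. The second clustering put the RGL/aNSC-like class at 1671 and 1607 CPM. The pool stood lower, at 551 and 672 CPM. In Opa1 cKO the intervals of RGL/aNSC-like and oligodendrocyte-like cells overlapped, so these neighbours were not told apart.

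**Figure D1:**
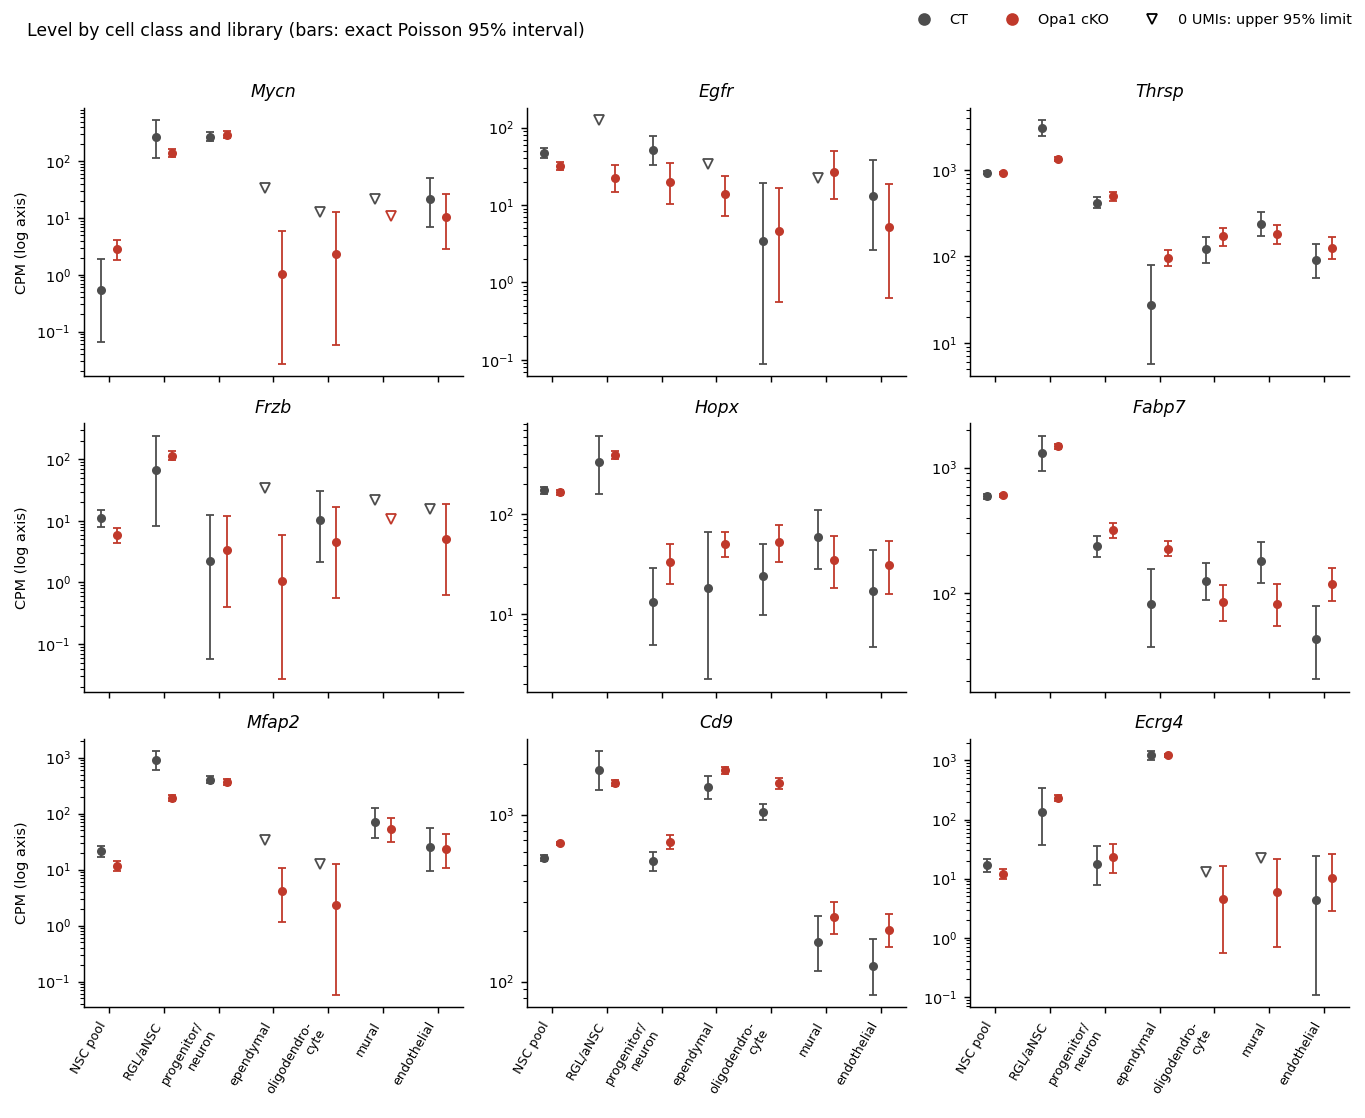
Level of each of the 9 genes in each cell class of the first clustering, in CPM on a log axis, with 1 panel per gene, points for CT and Opa1 cKO and bars for the 95% Poisson interval; triangles mark the upper limit where no UMI was seen. Mycn and Mfap2 stand in progenitor and neuron-like and RGL/aNSC-like cells, Ecrg4 in ependymal-like cells at 1224 and 1214 CPM, and Cd9 in RGL/aNSC-like, ependymal-like and oligodendrocyte-like cells.

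Setting RGL/aNSC-like against NSC pool-like cells within a library asks which of the genes were higher in the smaller class. Astrocytes were not told apart from NSCs in the pool, so the ratios need not be of activated over resting NSCs. In Opa1 cKO, 7 of the 9 were at least 2-fold higher in the RGL/aNSC-like class with an interval that left out equality, against 6.94% of the 11110 genes tested. Since classes were drawn from these same cells, and the 9 genes were chosen with earlier results of these data known, the ratios are descriptions. Counts and medians set beside those of all genes, here and below, are no test of enrichment. The median over the 9 was 1.30 on the log2 scale, against 0.11 over all genes tested.

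The genes split by size. Mycn was 50.2-fold higher (log2 5.65, 5.03 to 6.33), Frzb 19.6-fold (4.29, 3.82 to 4.79), Ecrg4 19.3-fold (4.27, 3.94 to 4.61) and Mfap2 16.4-fold (4.03, 3.69 to 4.39). Fabp7, Hopx and Cd9 were abundant in both classes and 2.46-, 2.40- and 2.30-fold higher. Thrsp was 1.43-fold higher (0.52, 0.44 to 0.60), and Egfr stood at -0.52 (-1.15 to 0.05). With the second clustering the same 7 genes passed, against 8.28% of all genes, with Mycn at 5.39, Frzb at 4.67 and Ecrg4 at 4.23.

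In CT the 49 cells of the second clustering gave ratios of like size. Of 8 genes tested, 7 were higher (7.47% of all genes), namely Frzb (32.1-fold, log2 interval 4.09 to 5.94), Mfap2 (log2 4.39), Ecrg4 (4.17), Fabp7 (1.76), Cd9 (1.68), Hopx (1.48) and Thrsp (1.37, 1.19 to 1.53). Mycn, with 9 UMIs against 1, was under the 20 UMIs required and had a ratio of 7.91 (5.06 to 13.37). Egfr was at 0.13 (-1.20 to 1.21), from 7 UMIs. The first clustering, with 11 CT cells, gave 5 of 8 higher (6.83%), Frzb and Hopx being the pair that no longer passed. Thrsp differed in this contrast between the libraries, its interval in CT lying above that in Opa1 cKO (0.51 to 0.67) in the second clustering. That difference has no replicate check.

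**Figure D2:**
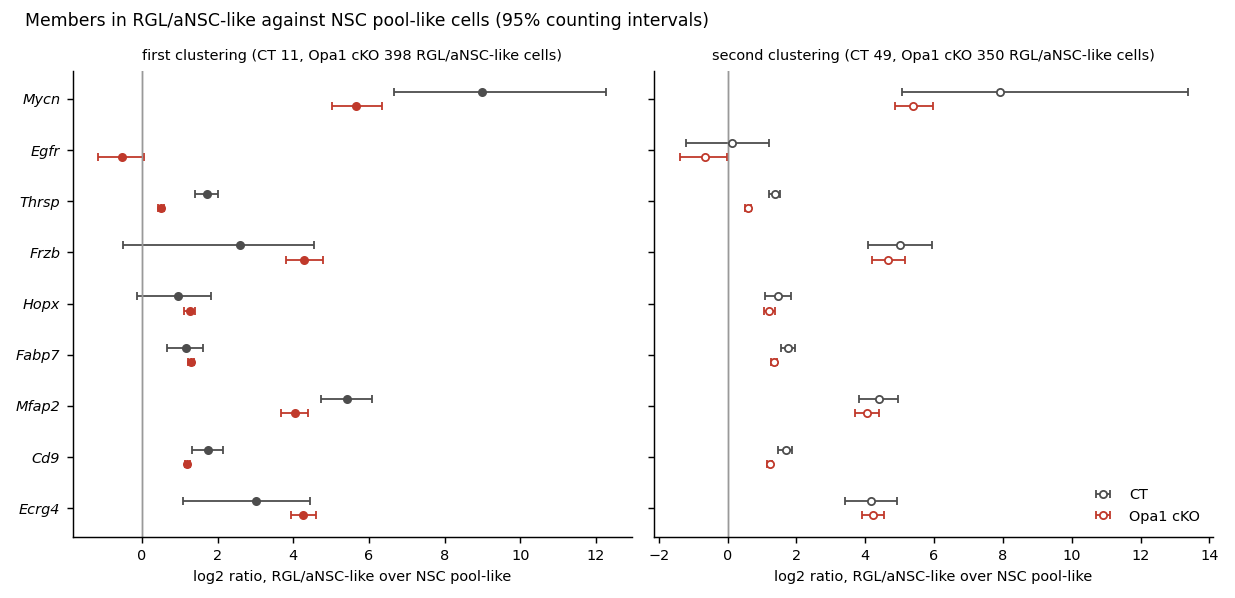
Log2 ratio of the CPM in RGL/aNSC-like over NSC pool-like cells for each gene, in CT and Opa1 cKO and with both clusterings; bars are 95% counting intervals and 0 marks equal levels. Mycn, Frzb, Ecrg4 and Mfap2 lie near or above 4 in Opa1 cKO, Fabp7, Hopx and Cd9 between 1.20 and 1.36, and Egfr at or below 0 in that library.

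Comparing Opa1 cKO with CT within a class asks whether loss of Opa1 goes with a different level of these genes in cells of the same class. In the pool, 1806 of the 2593 Opa1 cKO cells belonged to the cluster that held 4 CT cells, so the contrast of the whole pool also sets one cluster against another. In the NSC pool-like class, 8 of the 9 genes did not pass and 1, Mycn, was higher in Opa1 cKO, against 6.69% of 11308 genes in either direction. Mycn rested on 24 UMIs in Opa1 cKO and 2 in CT (log2 2.41, 0.40 to 5.53). In the second clustering it stood at 34 UMIs and 1 (3.83, 1.25 to 9.17), where 3.59% of all genes were higher. The count of 24 came from 2593 cells, so this remained a low level. In the pool cluster that most CT cells belonged to, the Mycn ratio was 1.56, its lowest over the alternatives. The median over the 9 genes was -0.06, against 0.03 over all genes.

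Egfr was lower in the Opa1 cKO pool, by less than 2-fold. Its log2 ratio was -0.56 (-0.84 to -0.28), from 273 UMIs in Opa1 cKO and 178 in CT. It lay between -0.77 and -0.48 in all 12 alternatives. Cd9 was 1.22-fold higher (0.29, 0.21 to 0.36), although in the pool cluster that most CT cells belonged to it stood at -0.01.

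Over the whole pool the ratios of Thrsp, Hopx and Fabp7 were -0.01 (-0.06 to 0.05), -0.06 (-0.20 to 0.07) and 0.03 (-0.04 to 0.10). In the cluster shared by both libraries alone they were 0.10, -0.01 and 0.46, so that Fabp7 stood higher in Opa1 cKO there, by less than 2-fold. For the 3 genes of extracellular proteins the sign turned with the clustering or the interval reached 0. Frzb moved from -0.93 to 0.03, Ecrg4 from -0.48 to 0.36 and Mfap2 from -0.87 to -0.32 between the first and the second clustering. Frzb UMIs of the CT pool went from 42 to 20 with the change of clustering, and those of the Opa1 cKO pool from 50 to 49.

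In RGL/aNSC-like cells Thrsp was lower in Opa1 cKO with either clustering. With 11 CT cells its ratio was -1.21 (-1.51 to -0.89), and with 49 it was -0.72 (-0.90 to -0.54). Mfap2 was lower as well, at -2.26 (-2.84 to -1.63) and -0.66 (-1.12 to -0.18). Only the first clustering put these 2 genes past 2-fold, 2 of 9 genes lower against 4.27% of all genes. Among its 11 CT cells, 1 cell held 30 of the 91 Thrsp UMIs and 1 cell held 9 of the 27 Mfap2 UMIs. The counting intervals do not cover such spread between cells. Over 11 alternatives Thrsp ranged from -1.36 to -0.64 and Mfap2 from -2.42 to -0.43.

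The direction of Mycn in RGL/aNSC-like cells depended on the clustering. It was at -0.93 (-1.95 to 0.30) in the first and 1.31 (0.35 to 2.47) in the second, where 9 UMIs in CT stood against 161 in Opa1 cKO and it was the 1 gene called (3.64% of all genes higher). Egfr, with 7 and 20 UMIs in the second clustering, was at -1.34 (-2.64 to 0.15). In that clustering Hopx (-0.20, -0.58 to 0.21), Frzb (-0.31, -0.94 to 0.38), Cd9 (-0.06, -0.26 to 0.15) and Ecrg4 (0.41, -0.16 to 1.04) had intervals that held 0. In the first clustering Hopx (0.24) and Frzb (0.77) had the other sign, while Cd9 (-0.26) and Ecrg4 (0.77) kept theirs. Their intervals held 0 there too.

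Progenitor and neuron-like cells were the same in both clusterings. Mycn was level there, at 0.12 (-0.22 to 0.46), and so was Mfap2, at -0.13 (-0.41 to 0.16). Egfr was lower in Opa1 cKO (-1.36, -2.51 to -0.30), from 12 UMIs against 23, the 1 member called, against 6.87% of all genes lower. Fabp7 (0.41, 0.06 to 0.77) and Cd9 (0.39, 0.15 to 0.62) lay on the other side, under 2-fold. The class also differed in its markers, with summed pool markers at 5586 (CT) and 9102 (Opa1 cKO) CPM and progenitor and neuron markers at 20694 and 15859 CPM, and their part was not tested. In the same class 8 of the 18 cell cycle genes were lower in Opa1 cKO, beside 6.87% of all genes. Among them were Top2a (-1.74) and Mki67 (-1.72), which are also markers that named the class and part of the sum above.

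**Figure D3:**
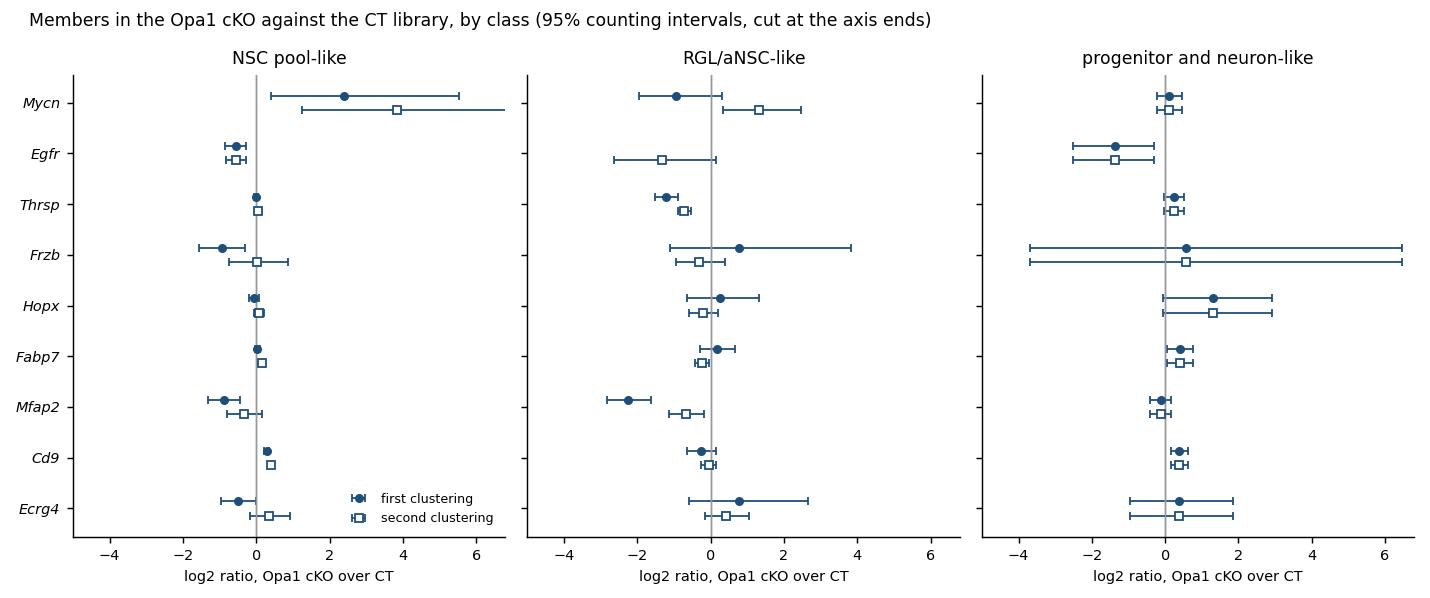
Log2 ratio of Opa1 cKO over CT for each gene in NSC pool-like, RGL/aNSC-like and progenitor and neuron-like cells, with both clusterings; bars are 95% counting intervals and 0 marks equal levels. Egfr lies below 0 in the pool at -0.56 and in progenitor and neuron-like cells at -1.36, while Thrsp is at -0.01 in the pool and below 0 in RGL/aNSC-like cells.

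Over all kept cells Ecrg4 was higher in Opa1 cKO, and so was the share of ependymal-like cells. Ecrg4 was at 41.6 (CT) and 125 (Opa1 cKO) CPM, or 1.59 on the log2 scale, where 4.73% of all genes were higher. Ependymal-like cells carried 134 of 210 Ecrg4 UMIs in CT and 1154 of 1557 in Opa1 cKO. They made up 39 of 1790 and 244 of 3764 cells, while their own level was the same in both libraries. The RGL/aNSC-like class of the first clustering also differed in size, with 11 CT and 398 Opa1 cKO cells, which carried 4 and 279 Ecrg4 UMIs. The part of either class in the ratio was not tested. No other member passed 2-fold over all kept cells. Frzb stood at 0.72 (0.26 to 1.21), Cd9 at 0.57 (0.51 to 0.63), Mfap2 at -0.38 (-0.58 to -0.17) and Egfr at -0.58 (-0.84 to -0.33).

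Many Opa1 cKO pool cells had a low share of mitochondrially encoded UMIs. Under 1% of UMIs from the 13 mitochondrially encoded genes was seen in 1593 Opa1 cKO and 3 CT pool cells, and 3% or more in 772 and 1267. Within Opa1 cKO, the low group was set against the group of 3% or more to see how the genes moved with that share. Of 8 genes tested, 1, Ecrg4, was lower in the low group, against 1.87% of all genes. It was at 9.02 against 18.2 CPM, from 48 and 46 UMIs (log2 -1.01, -1.62 to -0.39), just past 2-fold. Without the YFP filter the ratio of Ecrg4 was -0.55, under 2-fold. Fabp7 was 508 against 804 CPM (-0.66, -0.75 to -0.58), which did not reach 2-fold. Cd9 was at 0.36, Egfr at 0.19, Hopx at -0.06 and Thrsp at -0.13, beside 0.23 for the median of all genes.

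The groups of 3% or more were then compared between genotypes. None of 8 genes was called, against 4.51% of all genes. Egfr was at -0.78 (-1.20 to -0.37), beside -0.56 for the pool as a whole. Fabp7 was at 0.44 (0.35 to 0.53), Thrsp at 0.10 (0.02 to 0.17), Cd9 at -0.02 and Hopx at -0.03. Fabp7 thus lay above CT in Opa1 cKO cells with 3% or more and near CT over the whole pool.

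RGL/aNSC-like Opa1 cKO cells held 101 cells of the low group, 255 between 1% and 3% and 42 with 3% or more. In the first clustering 4 of 8 genes were lower in the low group, Mycn (78.8 against 202 CPM), Frzb (64.5 against 172), Mfap2 (71.6 against 217) and Ecrg4 (100.3 against 374), where 1.95% of all genes were lower. Thrsp (-0.77), Hopx (-0.55), Fabp7 (-0.29) and Cd9 (-0.28) were lower as well, by less than 2-fold and with intervals that left out equality. Mitochondrially encoded genes were not left out of this clustering, whose class was split here by their share. In the second clustering 1 of 8 was, Ecrg4 (122 against 263 CPM), against 1.3% of all genes. Mycn nonetheless stood above the pool in each group, with 78.8 against 2.82 CPM in the low group and 202 against 1.58 CPM at 3% or more.

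**Figure D4:**
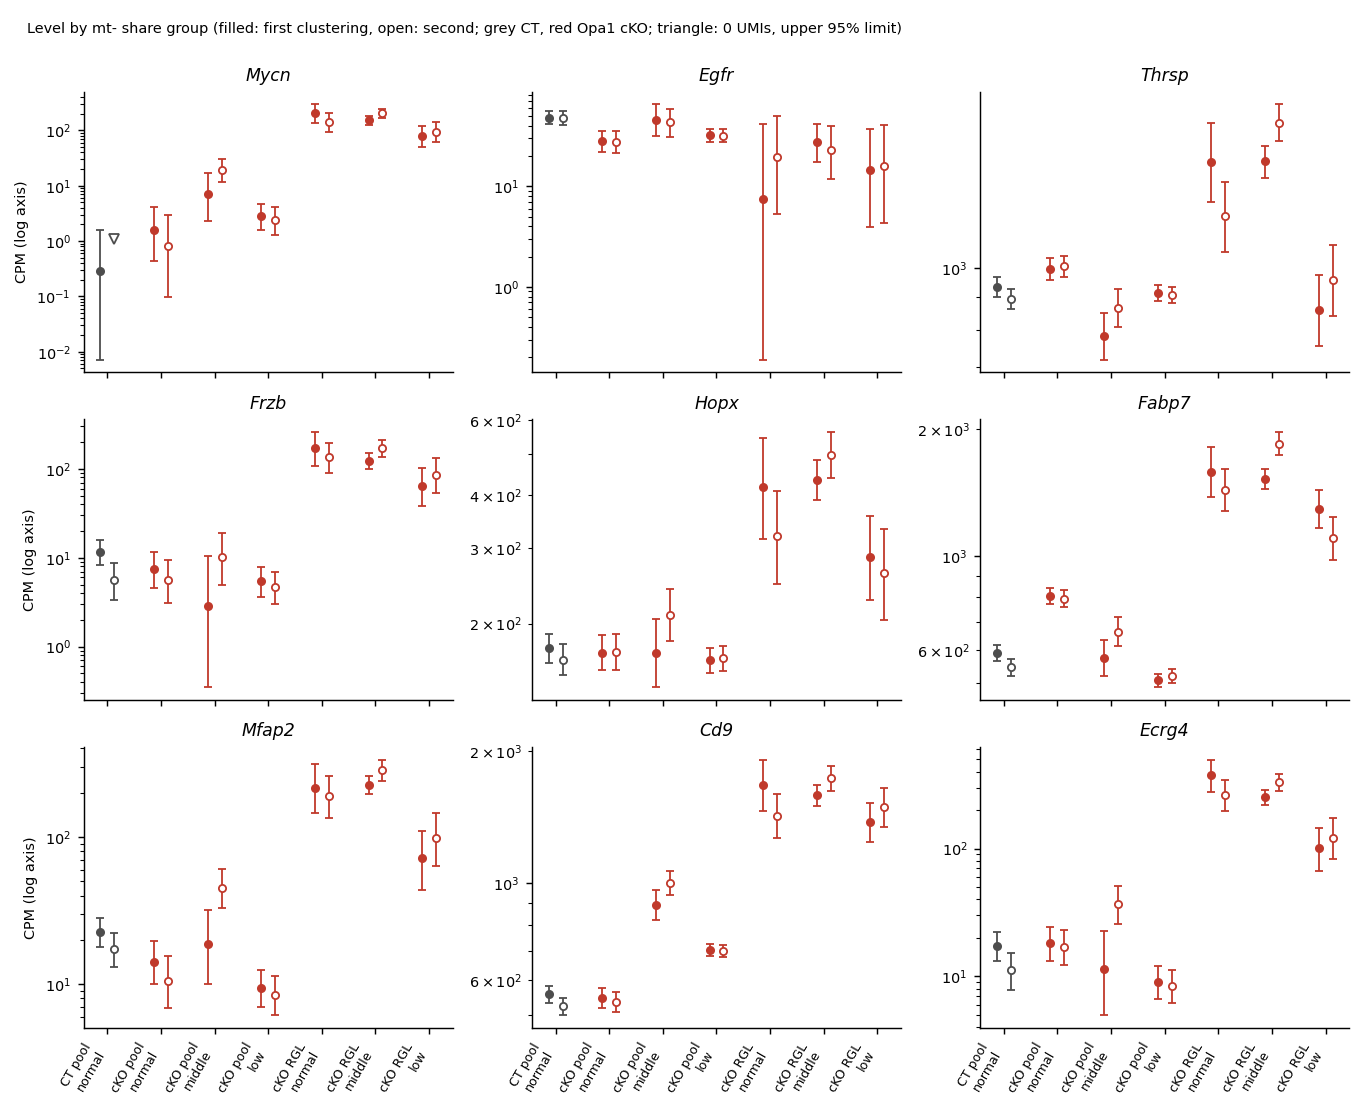
Level of each gene, in CPM on a log axis, in NSC pool-like and RGL/aNSC-like cells split by the share of mitochondrially encoded UMIs (low, under 1%; middle, 1% to 3%; normal, 3% or more), with filled points for the first and open points for the second clustering and bars for the 95% interval. Fabp7 goes from 508 CPM in the low to 804 CPM in the normal group of the Opa1 cKO pool. In RGL/aNSC-like cells of the first clustering all genes but Egfr are lower in the low than in the normal group. Only Mycn, Frzb, Mfap2 and Ecrg4 pass 2-fold there.

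The share of cells with a UMI of a gene was compared in the second clustering after each cell was thinned to 1500 UMIs. Shallower cells were dropped, 1 RGL/aNSC-like cell in CT and 30 in Opa1 cKO. Mycn was detected in 3 of 48 CT RGL/aNSC-like cells (6.25%, exact interval 1.31 to 17.2%). It was detected in 55 of 320 such cells of Opa1 cKO (17.2%, 13.2 to 21.8%). Before thinning the shares were 10.2% and 26.9%. In the first clustering the order was the other way, with 27.3% (3 of 11 cells, 6.02 to 61.0%) in CT and 15.5% (55 of 354) in Opa1 cKO, and intervals overlapped in both clusterings. Oligodendrocyte-like cells, which should lack it, were positive in 0 of 74 cells of CT, which allows a share of up to 4.05%, and in 1 of 101 cells of Opa1 cKO (0.990%). Ecrg4 was found in 25.0% and 27.8%, Mfap2 in 29.2% and 26.3% and Frzb in 10.4% and 15.6% of RGL/aNSC-like cells. Even in this class, most cells thus showed no UMI of any single one of these 4 genes at this depth.

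Among RGL/aNSC-like cells, Thrsp had a UMI in 75.0% (CT) and 64.1% (Opa1 cKO), Fabp7 in 70.8% and 73.8%, Hopx in 41.7% and 38.8% and Cd9 in 91.7% and 84.1%. Every one of these pairs of intervals overlapped. Thrsp UMIs were also seen in 16.2% and 13.9% of oligodendrocyte-like cells and Fabp7 in 5.41% and 9.90%, taken here as the background. By CPM Thrsp was lower in ependymal-like cells, at 27.4 (CT) and 96.8 (Opa1 cKO), than in oligodendrocyte-like cells, at 122 and 170. That background was thus not the lowest Thrsp level. Median depth was 2542 and 2458 UMIs in RGL/aNSC-like and 3768 and 3914 UMIs in oligodendrocyte-like cells. Thinned RGL/aNSC-like cells carried a median of 4 of the 9 genes in CT and 3 in Opa1 cKO, against 2 in the pool of either library. At least 4 genes were found in 56.2% and 49.4% of RGL/aNSC-like and 4.57% and 6.05% of pool cells.

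**Figure D5:**
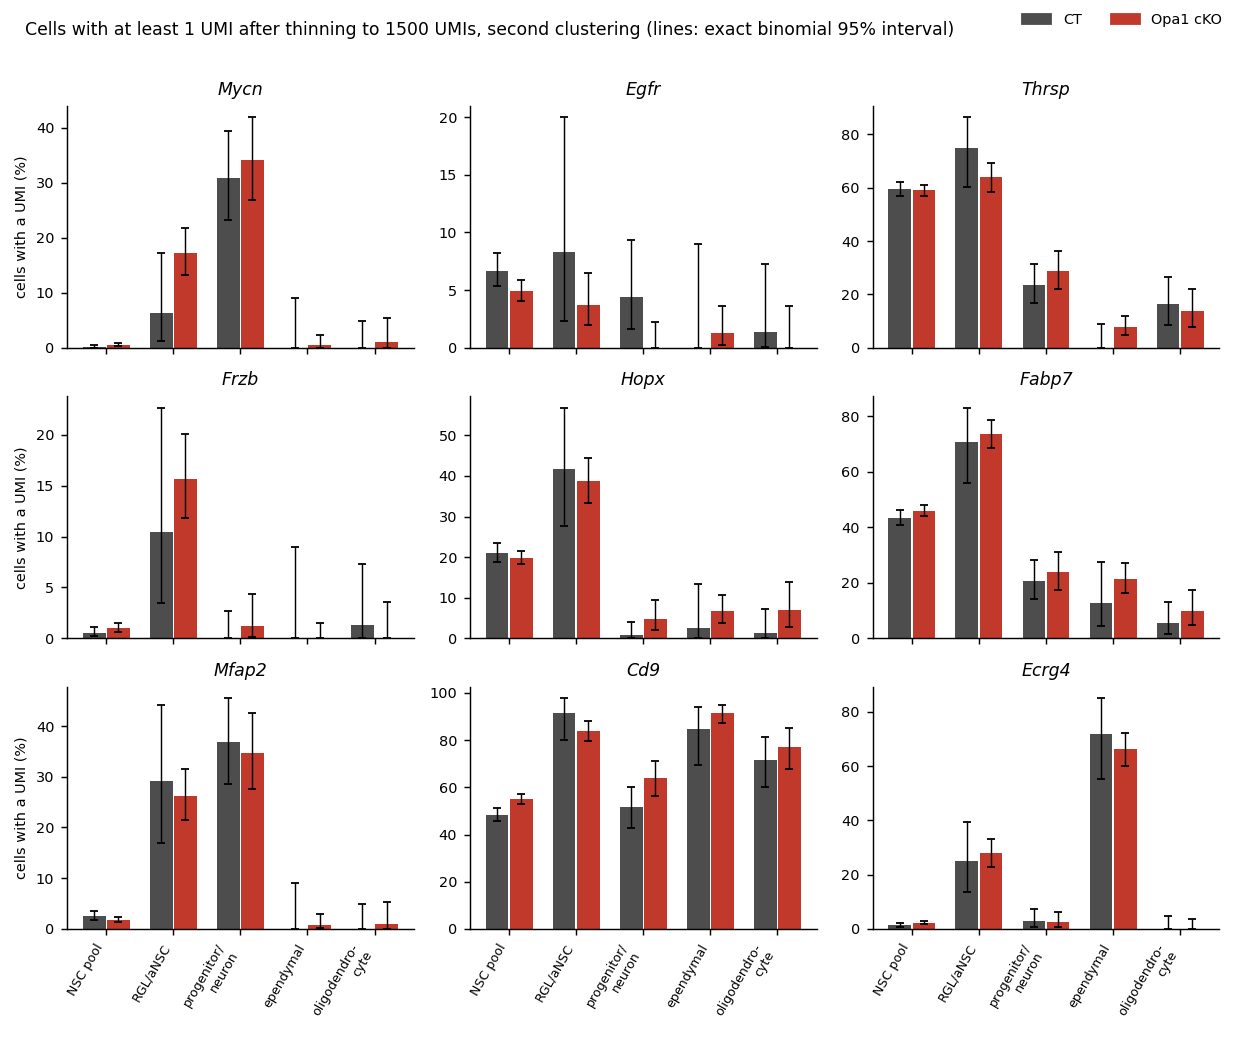
Percentage of cells with at least 1 UMI of each gene after thinning to 1500 UMIs per cell, second clustering, in NSC pool-like, RGL/aNSC-like, progenitor and neuron-like, ependymal-like and oligodendrocyte-like cells of both libraries; bars are exact 95% intervals. Mycn is in 17.2% of Opa1 cKO and 6.25% of CT RGL/aNSC-like cells. The intervals overlap, and the order is opposite in the first clustering (15.5% and 27.3%). Oligodendrocyte-like cells are taken as the background for all genes but Cd9, though they are not the lowest class for every gene.

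Likeness of pattern was described by Pearson's r of log2 CPM over 13 class and library units of at least 20 cells, among 7607 genes. These units share libraries, so r carries no test. The CT RGL/aNSC-like class of the first clustering, with 11 cells, was too small to be a unit, so r leaves out its levels. Mycn was most like Tox3 (0.96), Bex1 (0.96) and Hes6 (0.93). Ecrg4 was most like Riiad1, Pih1d2 and Nme5 (0.97 to 0.98), Thrsp like Rgs20 (0.97), Mfap2 like Nt5dc2 (0.95), Cd9 like Prune2 (0.94) and Hopx like Dtna (0.93). Among the members the closest were Thrsp with Fabp7 (0.87), Mycn with Mfap2 (0.86) and Hopx with Fabp7 (0.84). The gene most like Frzb, Thbs4, reached 0.75.

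Other genes of the members' pathways were taken from fixed lists and set, for Opa1 cKO, RGL/aNSC-like over pool. Among genes of WNT signalling, 6 of 17 tested were higher and 2 lower, beside 6.94% and 3.95% of all genes, and the median was 0.22. Sfrp1, like Frzb a secreted WNT antagonist, was at 3.48 (2.78 to 4.21), and Lef1, a WNT-responsive transcription factor, was at 2.11 (1.51 to 2.69). Wnt8b (5.23) was also higher, but it is a marker that named the class. In the pool of the first clustering, Sfrp1 was lower in Opa1 cKO than in CT (-2.05, -2.76 to -1.37), as 3.45% of all genes were. That CT pool included 39 cells that the second clustering placed in the RGL/aNSC-like class. The part of those cells in the Sfrp1 ratio was not tested.

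Of the EGF receptor family, its ligands and feedback genes, 0 of 14 tested were higher in RGL/aNSC-like cells and 5 were lower. The shares of all genes were 6.94% and 3.95%, and the median of the list was -0.70. The ligand Hbegf (-1.48, -1.86 to -1.13), and the feedback inhibitors Lrig1 (-1.30) and Spry2 (-1.02) were among the lower ones, beside -0.52 for Egfr itself. The second clustering left 1 lower, against 2.86% of all genes. Of the MYC network, 1 of 16 was higher, Npm1, a nucleolar protein (1.09, 0.95 to 1.24), which is near the 6.94% of all genes. The median of the list was 0.53, beside 0.11 over all genes, and Mycn itself was 50.2-fold higher. The second clustering gave 3 higher and 1 lower, beside 8.28% and 2.86% of all genes.

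Of 10 cell cycle genes tested, 6 were higher and 4 did not pass, beside 6.94% of all genes, and the median was 1.33. With the second clustering 5 of 10 were higher, beside 8.28% of all genes. Mki67, a marker of dividing cells, had 0 UMIs in RGL/aNSC-like cells of both libraries in either clustering. Ccnd1, a cyclin of G1 phase, was at 4.53 (3.67 to 5.47) and the replication helicase genes Mcm6 and Mcm2 were at 2.52 and 1.67. None of 11 genes of fatty acid synthesis and binding was called, against 10.9% of all genes in either direction. Their median was -0.45, beside Thrsp at 0.52 and Fabp7 at 1.30. Of 16 quiescence genes 2 were lower, Id2 (-1.10) and Clu (-1.04), the latter a marker of the pool class, beside 3.95% of all genes. In the second clustering 4 were lower and 1 higher, beside 2.86% and 8.28% of all genes. Among tetraspanin and microfibril genes 1 of 8 was higher, Cd82 (1.33), and 1 lower, Ltbp1 (-1.98), beside 6.94% and 3.95% of all genes. Of 30 ISR genes, 27 were higher in the Opa1 cKO than in the CT pool, beside 3.25% of all genes. For RGL/aNSC-like over pool in Opa1 cKO, 1 of 30 was higher (Cdkn1a, 1.00), beside 6.94% of all genes. Lower were 2 of 30 (Nupr1, -1.52, and Gdf15, -1.26), beside 3.95%. ISR genes were not left out of the first clustering, and Nupr1 and Gdf15 were leading genes of the pool cluster with 1806 Opa1 cKO cells. Their ratios thus describe classes that may have been drawn in part on these genes.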

How the data were processed

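The deposited matrices hold UMI counts per gene and cell, unnormalized. Per the labels' processing notes the authors used Cell Ranger 2.1.1 with mm10, whereas the matrix header gives software version 3.1.0. Cells with over 600 and under 7500 genes, under 20% mitochondrially encoded UMIs and at least 1 YFP UMI were kept. They were clustered with Seurat 5.3.0 (sctransform 0.4.2, 8 dimensions, resolution 0.2) without the 9 genes. A class took the name of the marker list with most markers over 2-fold and in 5% of its cells, at least 3, a rule set after the clusters were seen. Counts were summed per class and library. CPM carries exact Poisson intervals, log2 ratios exact binomial intervals and shares Clopper-Pearson intervals (95%). A gene was tested at 20 UMIs over both groups and called at 2-fold with an interval leaving out equality. A list's members follow the same rule, and named genes of other lists are the called ones with the largest ratios. Intervals cover counting error only. To bound a ratio with a count of 0 on a side, 3 counts were put in its place. Scrublet (scanpy 1.11.5) called 0.287% and 0.0980% of cells as doublets, too few to have worked, so none were removed. Interval code was tested on simulated data. The members, lists and classes were chosen with earlier results of these data known. Alternatives changed the filters, clustering, thinning and count minimum. The gene most like Egfr in pattern is not reported here.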

Additional observations from a re-analysis of the deposited data

Results flagged for a closer look

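Fabp7 was flagged because its ratio of Opa1 cKO over CT pointed in opposite directions in the NSC classes of the second clustering. On the log2 scale it stood at 0.16 (0.09 to 0.24) for the NSC pool and at -0.24 (-0.43 to -0.04) for RGL/aNSC-like cells, both under 2-fold. With 1 library per genotype the difference was not tested. In the first clustering, with 11 CT cells in the RGL/aNSC-like class, the ratios were 0.03 and 0.17.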

How the results depend on the processing

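Alternatives gave 423 log2 ratios of single genes that moved by less than their interval and 68 that moved by more. They covered genotype in the pool and in RGL/aNSC-like cells, RGL/aNSC-like over pool in each library, and mitochondrial share in the pool. In these contrasts no ratio called in the first clustering turned its sign. The other contrasts, such as those in progenitor and neuron-like cells and over all kept cells, were run in the first and second clustering only. Mycn in RGL/aNSC-like cells (-0.93, not called) had the other sign in 4 of 11 alternatives and was called higher (1.31) in the second clustering. Of the shares of cells, 27 were as before and 45 moved. The median of the 9 genes in the pool, -0.064, was 0.064 when clustered without mitochondrially encoded and ISR genes and 0.10 without the YFP filter. The RGL/aNSC-like over pool median in Opa1 cKO, 1.30, was 1.18 when centred on the median of all genes. A minimum of 100 UMIs cut the genes called in either direction from 757 to 387 in the pool, from 426 to 226 in RGL/aNSC-like cells, from 775 to 401 between mitochondrial shares and from 1210 to 674 between classes, since fewer genes were tested. Leaving out the highest 4% of doublet scores, leaving out cells with at least 5 C1q UMIs and taking pool cluster 0 alone were chosen after seeing the data. No paired analysis was possible because each genotype was 1 library, and for the same reason no replicate could be left out. Genotype cannot be told apart from library, sort and pooled mice. Mycn and Frzb in the pool, and Mycn, Egfr, Frzb and Ecrg4 in CT RGL/aNSC-like cells, rest on few UMIs, so differences of less than their intervals could not be seen at this depth.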
